A study of Mus musculus with 28 samples.

Results

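A hairpin RNA against Fabp7 was compared with a control hairpin for its effect on acetylation of histone H3 at lysine 9 (H3K9ac) in mouse lung adenocarcinoma cells. The libraries were chosen by mark and group label: all 3 H3K9ac libraries of the group Res_shFabp7 and all 3 of the group Res_Ctrl, 6 of the 28 samples of the series. Both groups were cultures of the line labelled resistant to PD-1 blockade, one labelled as Fabp7 knockdown and the other only as control, taken here as the control hairpin. The series also holds resistant cells without a hairpin (Res, treated with PD-1 inhibitors per the labels), sensitive cells (Sen), a second mark (H3K27ac) and inputs. The labels call the libraries biological replicates. They do not say whether replicates came from separate infections or clones, how many hairpins were used, or how far Fabp7 RNA fell, so p-values measure the spread between these cultures. No step of the peak lists checks the knockdown, since a hairpin acts on the transcript.

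H3K9ac is a mark of active promoters: acetyl groups placed on the tail of histone H3 loosen the contact between nucleosomes and are read by bromodomain and YEATS proteins. Acetyl groups come from acetyl-CoA, which cells make from glucose, acetate and fatty acids. Fabp7 encodes a fatty acid binding protein best known from neural progenitors and glia, which carries polyunsaturated fatty acids through the cytosol. The title of the series links these proteins to ferroptosis, a form of cell death driven by peroxidation of membrane lipids.

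The 6 lists held 93557 peaks, which merged into 19259 regions. Of these, 11152 regions had a peak in all 6 lists and were compared by tag counts. With the knockdown, 578 of them fell (5.18%) and 317 rose (2.84%), 8.03% in all, at an adjusted p under 0.05 in edgeR's quasi-likelihood test with Benjamini-Hochberg adjustment. With all tags in peaks as the library size the split was 1267 falls and 164 rises. Leaving out the first, the second or the third knockdown library left 360, 382 and 322 calls, and leaving out the second control library 505. At gene level 9668 genes had a tested region, of which 351 fell (3.63%) and 214 rose (2.21%). The falls were led by Serpinh1, Adgra2, Ddah1 and Serinc2, and the rises by Hip1r, Eya1 and Cfap410. Peaks present in all 3 knockdown lists and 0 control lists, at Clic6 and Sox2 among others, numbered 937 (4.87% of regions), and the reverse was true of 5 (0.026%). The knockdown lists held more peaks, and with equal numbers of peaks per list the counts were 194 and 129.

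Promoter sequences of 7 genes that the results turn on are shown first. They are Sox2, whose peak was called with the Fabp7 hairpin alone; Hip1r, with the largest rise; Serpinh1 and Ddah1, among the largest falls; Slc16a3 and Egln3, hypoxia genes that fell; and Ccn1, a target of the YAP and TEAD factors that fell. Each runs from 250 bases before to 50 bases after a start listed in RefSeq (GRCm38.p6, the assembly called mm10), on the strand of the gene and each lies within the measured region. Capitals mark, on either strand, the GC box GGGCGG, the CCAAT box, the TATA box TATAAA, the AP-1 site TGANTCA, the cyclic AMP response element TGACGTC, the ETS site CCGGAAG, the NRF1 site GCGCATG, the YY1 site AAGATGG, the E2F site TTCCCGC, the TEAD site CATTCC, the core of the hypoxia response element ACGTG and that of the metal response element TGCGCNC.
Sox2, chr3:34649745-34650044, plus strand: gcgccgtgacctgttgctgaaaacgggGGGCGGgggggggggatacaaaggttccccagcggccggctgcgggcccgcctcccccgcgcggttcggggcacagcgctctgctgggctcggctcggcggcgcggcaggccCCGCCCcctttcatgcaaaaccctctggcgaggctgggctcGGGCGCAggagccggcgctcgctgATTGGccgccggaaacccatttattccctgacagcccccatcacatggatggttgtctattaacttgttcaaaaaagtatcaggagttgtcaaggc
Hip1r, chr5:123973378-123973677, plus strand: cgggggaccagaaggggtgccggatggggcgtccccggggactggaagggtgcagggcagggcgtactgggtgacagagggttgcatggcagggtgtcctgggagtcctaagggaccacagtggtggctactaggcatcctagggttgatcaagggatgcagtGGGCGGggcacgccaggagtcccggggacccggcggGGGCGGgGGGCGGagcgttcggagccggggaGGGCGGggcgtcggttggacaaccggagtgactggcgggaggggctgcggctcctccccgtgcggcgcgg
Serpinh1, chr7:99353190-99353489, minus strand: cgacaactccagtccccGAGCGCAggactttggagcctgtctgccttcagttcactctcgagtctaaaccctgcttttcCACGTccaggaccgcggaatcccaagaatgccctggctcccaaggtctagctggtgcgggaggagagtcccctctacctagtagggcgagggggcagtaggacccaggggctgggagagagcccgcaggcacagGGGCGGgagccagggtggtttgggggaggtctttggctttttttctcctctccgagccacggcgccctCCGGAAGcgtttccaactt
Ddah1, chr3:145758442-145758741, plus strand: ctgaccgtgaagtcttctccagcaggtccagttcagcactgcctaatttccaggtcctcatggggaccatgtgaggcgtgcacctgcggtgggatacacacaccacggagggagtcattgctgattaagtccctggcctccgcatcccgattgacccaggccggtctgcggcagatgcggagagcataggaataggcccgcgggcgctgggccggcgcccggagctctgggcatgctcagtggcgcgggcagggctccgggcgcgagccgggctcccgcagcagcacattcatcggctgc
Slc16a3, chr11:120948817-120949116, plus strand: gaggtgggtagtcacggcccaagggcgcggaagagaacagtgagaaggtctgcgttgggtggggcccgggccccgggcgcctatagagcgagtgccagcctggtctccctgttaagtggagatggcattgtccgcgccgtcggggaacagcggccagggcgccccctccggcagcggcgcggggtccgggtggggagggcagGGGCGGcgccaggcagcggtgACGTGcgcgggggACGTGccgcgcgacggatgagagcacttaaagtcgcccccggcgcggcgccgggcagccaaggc
Egln3, chr12:54203825-54204124, minus strand: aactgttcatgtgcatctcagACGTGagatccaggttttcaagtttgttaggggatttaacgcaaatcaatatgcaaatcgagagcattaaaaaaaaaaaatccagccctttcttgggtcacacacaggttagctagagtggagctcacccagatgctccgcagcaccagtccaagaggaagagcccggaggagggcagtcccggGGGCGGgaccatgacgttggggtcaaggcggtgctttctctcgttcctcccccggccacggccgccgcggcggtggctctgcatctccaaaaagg
Ccn1, chr3:145649936-145650235, minus strand: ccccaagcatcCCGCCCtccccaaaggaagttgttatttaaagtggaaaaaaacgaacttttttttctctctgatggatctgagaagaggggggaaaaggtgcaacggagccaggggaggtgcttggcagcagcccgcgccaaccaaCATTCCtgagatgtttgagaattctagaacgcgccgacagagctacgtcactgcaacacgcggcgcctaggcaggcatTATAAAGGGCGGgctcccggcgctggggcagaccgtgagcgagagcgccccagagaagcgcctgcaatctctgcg

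The Hip1r promoter held 4 GC boxes and the Sox2 promoter 2. The Ddah1 promoter held 0 of the 12 motifs. The hypoxia core ACGTG was found 2 times in the Slc16a3 promoter and 1 time in that of Egln3. Over all promoters in regions that fell, 20.3% of 316 held this core, against 27.6% of the 9305 promoters in tested regions. The TEAD letters were found 1 time before Ccn1, and in 13% of promoters in regions that fell against 11.0% of those tested. ETS letters were in 11.1% of promoters in regions that fell, 21.5% of the 219 in regions that rose and 21.5% of those tested. Promoters of the 3 sets had similar base composition, with a median of 21 CpG in regions that fell, 22 in regions that rose and 23 in all tested regions. These are letters found, not bound sites.

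The knockdown lists were larger, which bears on every count of peaks present or absent. The knockdown libraries held 16529, 18317 and 17610 peaks and the control libraries 11771, 13113 and 16217. The means were 17485 ± 900 (SD, n = 3) and 13700 ± 2280, a difference of 3780 peaks. Tags in peaks were 4.84, 7.19 and 5.86 M with the knockdown and 2.57, 3.19 and 4.63 M in the controls, in units of M (megatags). Called sequence came to 42.3, 50.1 and 45.1 Mb against 27.8, 31.5 and 41.7 Mb. The groups did not overlap in any of these, and each exact permutation test gave p = 0.1, the smallest that 3 libraries against 3 can reach. The third control library lay next to the first knockdown library in peaks, tags and length, and further from the first control library. The density of tags was 114, 144 and 130 per called kb with the knockdown and 92.7, 101 and 111 in the controls. Total reads of each library are not in the lists, so more reads and more acetylated sites cannot be told apart here.

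**Figure D1:**
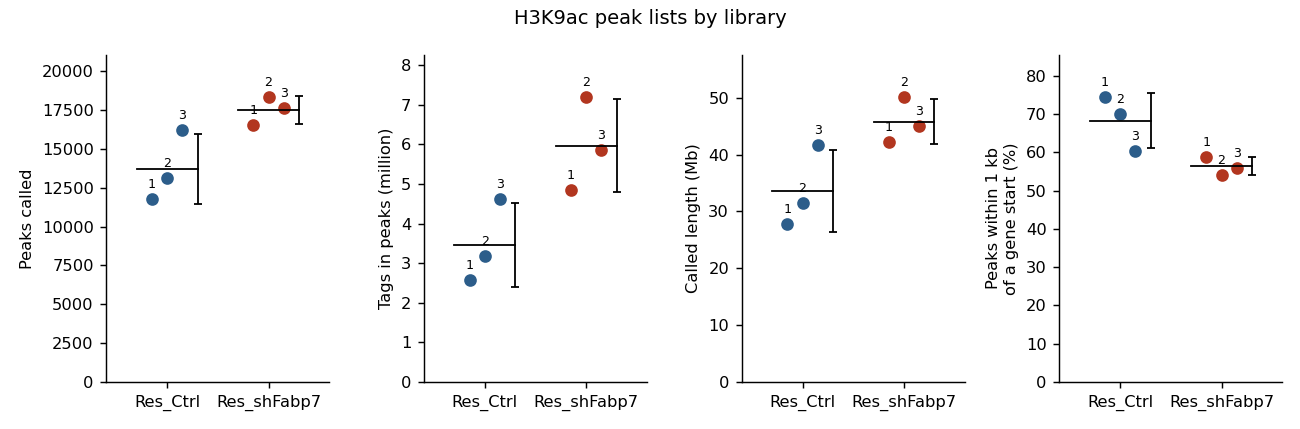
Peaks called, tags in peaks, called length and share of peaks near a gene start in each H3K9ac library (points, numbered by replicate), with the mean (line) and SD (bar) of 3 libraries per group. The third control library lies at 16217 peaks, between the other controls (11771 and 13113) and the knockdown libraries (16529 to 18317).

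The larger lists reached further from genes. A gene start lay within 1 kb of 58.9, 54.2 and 56.0% of peaks in the knockdown lists and of 74.4, 70 and 60.4% in the control lists (exact permutation p = 0.1, no overlap). With each list limited to its 11771 highest-scoring peaks, the difference in mean share was -0.108 percentage points. Of the regions with a peak in all 6 lists 77.1% were near a gene start, and of the regions with a peak in 1 list 9.72%.

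The label of the cells was checked against markers of lung adenocarcinoma. Peaks at Foxa2, Hnf4a, Krt7, Krt8, Krt18, Krt19, Cdh1 and Sftpc were called in all 6 lists. Epcam, an adhesion protein of epithelia, had a peak in 2 lists, and Nkx2-1, the lineage factor of the lung, in 0. In the wider gene lists, 18 of 33 lung and endoderm genes and 24 of 38 epithelial markers had a peak in any list. Among those without were Sftpa1, Sftpb, Sftpd, Napsa, Slc34a2, Cldn4 and Grhl2. Foxa2, a factor of endoderm, was at 373, 358 and 366 CPM with the knockdown and 349, 352 and 371 in the controls. CPM here are counts per megatag in the tested regions after TMM scaling. Of 16 fibroblast and endothelial markers 0 had a peak in any list, and of 23 immune cell markers 1 did.

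Fabp7 itself (chromosome 10, 57784923 to 57788450, mm10) had 0 H3K9ac peaks within 25 kb in all 6 libraries. The nearest lay 251896 to 252027 bases away. In H3K27ac of the same groups a peak lay within 25 kb in the second and the third knockdown library, 5864 and 5709 bases from the gene, and in 0 control libraries. Of the 13 fatty acid and retinoid binding genes of the family only Fabp5, the epidermal form, could be tested. Its region (chromosome 3, 10011730 to 10014365) held 24.1, 23.3 and 17.8 CPM with the knockdown and 37.5, 25.7 and 31.3 CPM in the controls. The groups did not overlap, and the change of -0.53 ± 0.17 (log2, SE) did not pass (edgeR adjusted p = 0.076).

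The 12 genes or shared regions named in each direction were chosen for size among those whose groups did not overlap, so their separation is no finding. Over all tested regions 15.3% had all 3 knockdown values below the controls and 14.0% above. Serpinh1, which encodes the collagen chaperone HSP47, fell most (chromosome 7, 99350841 to 99353529). It held 12.7, 24.8 and 13.3 CPM with the knockdown and 63.7, 60.3 and 60.1 CPM in the controls. All 3 knockdown libraries were thus below the controls, the second less so, and the fall was 3.53-fold (-1.82 ± 0.20, adjusted p = 0.00027). Adgra2, an adhesion receptor that acts with Wnt7 signals in vessels (chromosome 8, 27084786 to 27087081), held 20.9, 17.7 and 14.9 CPM against 39.5, 39.8 and 49.2. It fell 2.44-fold (-1.29 ± 0.16, adjusted p = 0.00047). Ddah1, which breaks down the nitric oxide synthase inhibitor dimethylarginine (chromosome 3, 145758024 to 145759856), held 20.2, 21.7 and 21.2 CPM against 53.2, 53.0 and 46.3. Its values hardly spread within the groups, and it fell 2.40-fold (-1.26 ± 0.12, adjusted p = 0.00017).

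Serinc2, of a family that incorporates serine into membrane lipids (chromosome 4), held 19.7, 23.2 and 17.0 CPM against 49.3, 36.5 and 49.2 (-1.17 ± 0.16, adjusted p = 0.0011). The homeobox gene Dlx4 held 20.2, 31.1 and 21.1 CPM against 56.3, 43.5 and 54.6 (-1.08 ± 0.17, adjusted p = 0.0024). The AMP deaminase gene Ampd3 was at 15.1, 27.7 and 14.9 CPM against 29.3, 46.4 and 45.1 (-1.06 ± 0.23, adjusted p = 0.017). Here the second knockdown library came close to the first control library. The Rap regulator gene Sipa1l2 fell by 0.99 ± 0.11 on the log2 scale, and so did the region shared by Fxyd5 and Fxyd7 (by 0.99 ± 0.15), which encode regulators of the sodium pump. The kinase gene Camk1d fell by 0.97 ± 0.15. The focal adhesion gene Tns4, at 45.6, 41.5 and 39.2 CPM against 81.3, 82.0 and 75.4, fell by 0.92 ± 0.09. The homeobox gene Meis3 fell by 0.91 ± 0.14 and Heg1, a partner of endothelial junctions, by 0.89 ± 0.16. Each of these regions was at or below 45.6 CPM in every knockdown library. All 12 regions with the largest falls had shorter called lengths with the knockdown. The mean went from 2397 to 1500 bases at Serpinh1 and from 1723 to 1416 at Ddah1. Per called base all of them passed as falls, and all were smaller than by tags, such as -0.93 at Serpinh1 and -0.77 at Ddah1.

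The 12 largest rises near genes came with wider peaks. Hip1r, which links clathrin-coated pits to actin (chromosome 5, 123973190 to 123979102), held 78.1, 77.6 and 73.6 CPM with the knockdown and 27, 33.3 and 30.1 CPM in the controls. It rose 2.53-fold (1.34 ± 0.10, adjusted p = 3.8e-05), while its called length went from a mean of 1340 to 5367 bases. Per called base it fell (-0.45, adjusted p = 0.00094). Eya1, a phosphatase and co-activator of homeobox factors in organ development (chromosome 1), held 139, 140 and 147 CPM against 86.0, 24.0 and 78.6. The second control library was far below the other controls, and the rise was 1.17 ± 0.24 (adjusted p = 0.011), or 0.80 without that library. It did not pass with DESeq2's Wald test (adjusted p = 0.15) or with 1 knockdown library left out (adjusted p of 0.058, 0.05 and 0.056). Per called base Eya1 also rose (0.64).

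Cfap410, of the cilium, held 56.8, 74.0 and 49.3 CPM against 34.4, 24.4 and 27.4 (1.08 ± 0.17, adjusted p = 0.0021; -0.08 per called base). The cone phosphodiesterase gene Pde6c rose by 0.93 ± 0.14 and also per called base (0.27). The prefoldin gene Pfdn1, at 0.78 ± 0.08, and Traf3ip1, of cilium transport, at 0.76 ± 0.15, rose by tags. Per called base Pfdn1 was at 0.02 and Traf3ip1 at -0.51. Eml1, a microtubule-binding protein, held 90.6, 87.1 and 84.4 CPM against 50.8, 55.0 and 53.1, and rose by tags (0.72 ± 0.08) and per called base (0.33). The deubiquitinase gene Vcpip1 (0.71 ± 0.08), the DNA demethylase gene Tet3 (0.71 ± 0.12), Plp2 on chromosome X (0.70 ± 0.14), the growth factor binding protein gene Igfbp3 (0.67 ± 0.12) and Rassf8 (0.66 ± 0.08) completed the 12 largest. Of these 5, Vcpip1, Tet3 and Rassf8 passed as falls per called base (-0.24, -0.29 and -0.23), and Plp2 (0.09) and Igfbp3 (0.19) above it without passing.

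**Figure D2:**
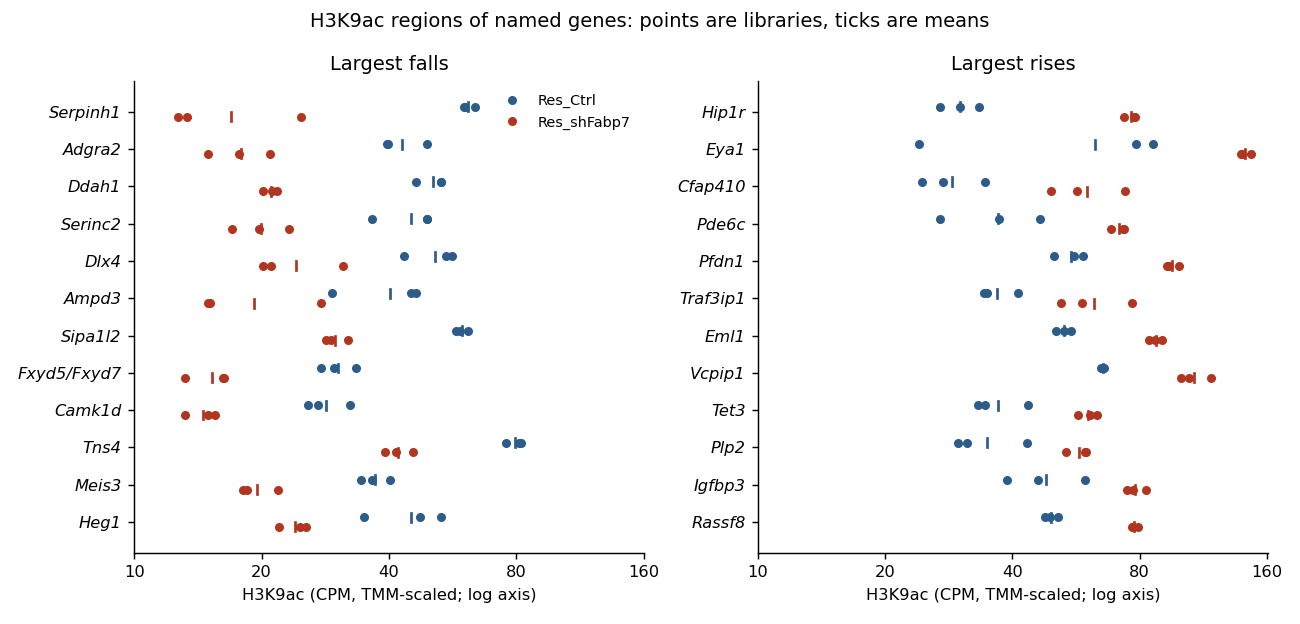
H3K9ac level in CPM (log axis) in each library (points) with the group mean (tick) for the 12 regions with the largest falls and the 12 with the largest rises among genes. The regions were chosen among those whose groups do not overlap. Serpinh1 goes from 60.1 or more in the controls to 24.8 or less.

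The change in called length differed between the rises and the falls, without fully separating them. All 317 regions that rose were longer in the knockdown lists, with medians of 3850 and 2560 bases, and 77.0% were longer by over 1.25 times. Over all tested regions 97.0% were longer and 21.4% by over 1.25 times. Regions that fell had a median of 3080 bases with the knockdown and 3030 in the controls. Of these, 64.4% were longer with the knockdown and 0.173% by over 1.25 times. Across the 11152 regions the change in tags and the ratio of lengths had a Pearson r of 0.72 (Spearman rho 0.67), a description of quantities that share the same peaks. Divided by called length and rescaled, 552 of the 578 falls stayed below 0 and 325 were called as falls, while 221 of the 317 rises stayed above 0, 77 were called as rises and 23 as falls.

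**Figure D3:**
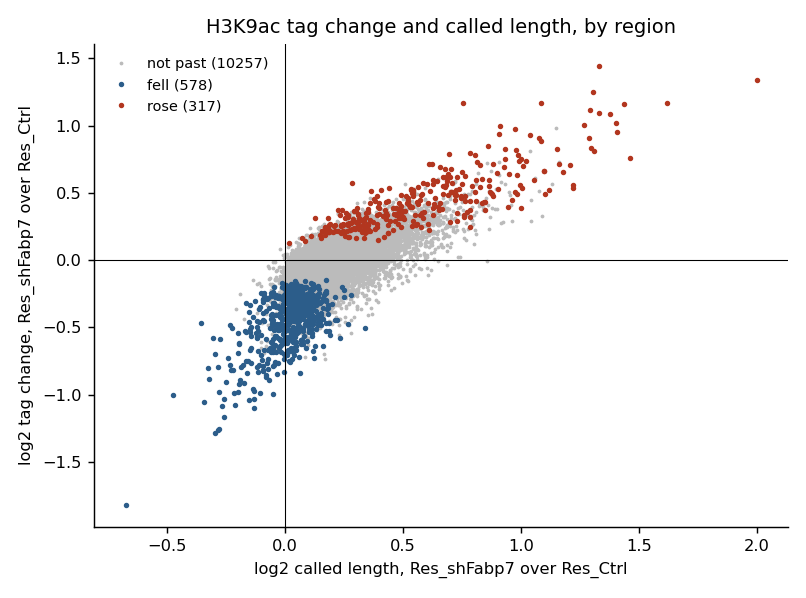
Change in tags (log2, vertical) against change in called length (log2, horizontal) for the 11152 tested H3K9ac regions, coloured by call. All rises lie to the right of 0, with a median length change of 0.54, and falls centre near 0 (median 0.03).

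The share called differed with distance from gene starts, without a test of that difference. Of 2550 tested regions over 1 kb from a start, 9.65% fell and 4.86% rose, against 3.86% and 2.24% of 8602 near a start. The largest fall away from starts lay within Mmp24, a membrane metalloproteinase gene (chromosome 2, 155808830 to 155811753). It held 28.3, 24.9 and 27.8 CPM against 64.5, 64.9 and 63.3, and fell by 1.25 ± 0.11 (adjusted p = 5.4e-05). A region within the zinc finger gene Zfp469 held 32.0, 32.7 and 27.2 CPM against 67.7, 68.5 and 61.3 (-1.10 ± 0.11). The largest rise lay within the myosin gene Myo5c (chromosome 9, 75235555 to 75239917), with 72.8, 81.6 and 81.5 CPM against 32.5, 23 and 31.3 (1.44 ± 0.12, adjusted p = 5.3e-05), and 0.35 per called base. A region 16145 bases from Foxa2, the endoderm factor, held 64.2, 68.4 and 61.4 CPM against 36.8, 26.3 and 25 (1.17 ± 0.13; -0.23 per called base). These regions were picked by size after the fit.

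The gene lists together covered 503 tested genes, of which 38 fell (7.55%) and 17 rose (3.38%), against 3.63% and 2.21% of all tested genes. Most lists had a median change within 0.1 of 0, where the median of all genes was 0.02. The lists were chosen with earlier results of these data known, so their shares are descriptions.

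Ferroptosis suppressors came first, in view of the title of the series. Of 29 tested, 3 rose and 0 fell (median -0.02). Sqstm1, the p62 adaptor that binds Keap1, held 116, 117 and 111 CPM with the knockdown and 84.1, 83.6 and 75.9 in the controls (0.50 ± 0.07, adjusted p = 0.0013). Acsl3, a ligase that activates monounsaturated fatty acids and shares its region with Utp14b, rose by 0.22 ± 0.06 (adjusted p = 0.037). G6pdx, the first enzyme of the pentose phosphate path, which shares its region with Ikbkg, rose by 0.27 ± 0.07 (adjusted p = 0.04). All 3 were below 0 per called base (-0.15, -0.02 and -0.12) without passing. Gpx4, the peroxidase that removes lipid peroxides, was at 0.20 (adjusted p = 0.066), and Gch1 at -0.24 (adjusted p = 0.24). Slc7a11, the cystine importer, had a peak in 3 knockdown and 2 control lists. Among drivers, 1 of 19 fell and 1 rose: Aloxe3, a lipoxygenase that shares its region with Hes7 (-0.38 ± 0.08, adjusted p = 0.0087), and Hmgb1 (0.21 ± 0.06, adjusted p = 0.044). Acsl4, which puts polyunsaturated fatty acids into membranes, was at 0.26 (adjusted p = 0.26).

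Few lipid genes passed. In fatty acid uptake and PPAR signalling, 1 of 13 fell: Ppargc1b, a co-activator of mitochondrial genes, at 22.9, 27.8 and 24.7 CPM against 32.1, 41.2 and 46.3 (-0.67 ± 0.15, adjusted p = 0.017). Pparg was at 0.01 and Ppard at -0.06. None of 14 genes of fatty acid synthesis, 19 of fatty acid oxidation, 16 of lipid droplets and 20 of cholesterol synthesis passed, with medians of 0.02, 0.11, -0.06 and 0.08. Of all tested genes 5.84% were called, so lists of this size with 0 calls lie close to the background. Of 18 core clock genes 0 passed. Of the stress response genes, 1 of 26 fell, Herpud1, of protein disposal at the endoplasmic reticulum (-0.28 ± 0.07, adjusted p = 0.022; 0.00 per called base).

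Hypoxia and glycolysis genes included 4 falls and 1 rise among 26. Slc16a3, the lactate exporter MCT4 (chromosome 11, 120948486 to 120951279), held 39.6, 37.7 and 40.2 CPM with the knockdown and 72.4, 69.5 and 68.6 in the controls. The groups lay far apart (-0.84 ± 0.09, adjusted p = 0.00027; -0.70 per called base). Egln3, a prolyl hydroxylase that marks HIF for decay, held 60.9, 64.2 and 66.2 CPM against 94.6, 91.2 and 87.8 (-0.51 ± 0.08, adjusted p = 0.0018). Car9, a surface carbonic anhydrase that shares its region with Arhgef39, was at 22, 24.3 and 24.9 CPM against 42.2, 30.6 and 37.1 (-0.62 ± 0.14, adjusted p = 0.021). Vegfa, the vascular growth factor, named after its value was seen, fell by 0.18 (adjusted p = 0.036; 0.03 per called base). Pgk1, a glycolytic enzyme on chromosome X that also stands in the list of housekeeping genes, rose by 0.31 ± 0.08 (adjusted p = 0.032; 0.09 per called base), 1 of the 26 housekeeping genes to pass. The list's median was -0.03.

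Of 12 class I genes 2 fell: H2-K1, at 24.1, 23.7 and 24.3 CPM against 39.1, 38.5 and 39.3 (-0.70 ± 0.12, adjusted p = 0.0038), and H2-D1, at 54.7, 54.2 and 50.6 CPM against 66.1, 72.4 and 69.1 (-0.38 ± 0.09, adjusted p = 0.019). These genes of the major histocompatibility complex are close copies, so reads may be split between them. Of 15 interferon response genes 2 fell, the tetherin gene Bst2 (-0.54 ± 0.15, adjusted p = 0.045) and Jak1 (-0.39 ± 0.10, adjusted p = 0.028). Of 14 genes of checkpoint ligands and cytokines 3 fell: the neutrophil chemokine Cxcl5 (-0.64 ± 0.11, adjusted p = 0.0035), the alarmin Il33 (-0.59 ± 0.11, adjusted p = 0.0082) and the macrophage growth factor Csf1 (-0.50 ± 0.07, adjusted p = 0.00082). Cxcl5 held 57.5, 59.9 and 48.7 CPM with the knockdown and 78.2, 80.3 and 98.4 in the controls. Per called base Il33 (-0.10) and Csf1 (-0.07) did not pass. Cd274, the PD-1 ligand, had a peak in 3 knockdown and 2 control lists. NF-kB genes went both ways, with falls at Tnfaip2 (-0.66 ± 0.12) and Tnfaip3 (-0.30 ± 0.04) and rises at Relb (0.42 ± 0.12) and, named after its value was seen, Birc2 (0.22), among 17 tested. Per called base Relb was at -0.20 and Tnfaip3 at -0.12, neither past the threshold, while Tnfaip2 (-0.46) and Birc2 (0.27) passed.

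Of 13 mesenchymal and matrix genes 3 fell and 0 rose (median -0.11). Ccn1, a matricellular protein (chromosome 3, 145647944 to 145654503), held 169, 168 and 165 CPM with the knockdown and 259, 267 and 243 in the controls, a gap far wider than the spread (-0.61 ± 0.05, adjusted p = 5.3e-05). Ccn2 was at 90.4, 88.5 and 88.1 CPM against 101, 116 and 115 (-0.32 ± 0.07, adjusted p = 0.016). The receptor tyrosine kinase gene Axl fell by 0.20 ± 0.05 (adjusted p = 0.035; -0.05 per called base, not past the threshold). Ccn1 and Ddah1 are neighbours on chromosome 3, and 1 of the 5 lost regions (145683937 to 145686400), with 143, 166 and 171 tags in the control lists, lay between them. Of 30 immediate early genes 6 fell and 0 rose. They were the Kruppel factors Klf2 (-0.52 ± 0.14) and Klf4 (-0.35 ± 0.05), Jun (-0.27 ± 0.06) and, named after their values were seen, Dusp4 (-0.21), Spry4 (-0.19) and Fosl2 (-0.17). Of these 6, Klf2 passed per called base (-0.41), and Klf4 (-0.16), Jun (-0.17), Dusp4 (-0.02), Spry4 (-0.05) and Fosl2 (-0.01) did not. Jun held 158, 152 and 148 CPM against 170, 179 and 199.

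Lineage genes moved both ways. Among 14 lung and endoderm genes 2 rose and 2 fell. Hmga2, a chromatin protein of embryonic cells, named after its value was seen, rose by 0.25 (adjusted p = 0.0021). The progenitor factor Sox9 (54.0, 79.0 and 61.2 CPM against 80.2, 93.8 and 111; -0.55 ± 0.14, adjusted p = 0.027) and the mucin gene Muc1 (-0.49 ± 0.07, adjusted p = 0.0021) fell. Of 19 epithelial markers Krt7 (-0.38 ± 0.06) and Klf4 fell and the desmosome gene Dsp rose (0.25 ± 0.07). Per called base Klf4 (-0.16) and Dsp (-0.02) did not pass. Nes, the intermediate filament of neural progenitors, was 1 of the 2 neural markers that could be tested and fell (145, 137 and 128 CPM against 208, 217 and 189; -0.58 ± 0.07, adjusted p = 0.00031; -0.05 per called base). Of 28 genes of the Wnt, Notch, Hedgehog and BMP pathways 4 fell and 2 rose. Notch1 held 36.6, 37.0 and 34.0 CPM against 46.1, 53.3 and 55.0 (-0.53 ± 0.11, adjusted p = 0.014), and the TGF-beta inhibitor Smad7 fell by 0.24 ± 0.04. Ctnnb1, the beta-catenin gene, rose by 0.31 ± 0.07 (adjusted p = 0.015) and by 0.39 per called base. The others, named after their values were seen, were Wnt7b (-0.21), Hes1 (-0.19) and Id1 (0.21). Per called base Smad7 (-0.14), Wnt7b (0.01) and Hes1 (-0.04) did not pass.

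Of 36 tested genes for writers, erasers and readers of histone acetylation 3 rose and 0 fell. They were Taf1, of the general factor TFIID (0.49 ± 0.14, adjusted p = 0.044), the deacetylase gene Sirt7 (0.34 ± 0.09, adjusted p = 0.044) and Tada3, of the Gcn5 complex, which shares its region with Arpc4 (0.30 ± 0.07, adjusted p = 0.017). Per called base these 3 changes did not pass (0.04, 0.13 and 0.17). Of 39 cell cycle genes 3 fell: Mki67 (-0.28 ± 0.07), Cdc20 (-0.24 ± 0.06) and the inhibitor gene Cdkn1a (-0.20 ± 0.06). Per called base none of these 3 passed (-0.16, -0.17 and -0.04). Of 52 ribosomal protein genes 2 rose, Rplp0 (0.48 ± 0.12) and Rpl5 (0.27 ± 0.07), and 2 fell, Rps27, which shares its region with Nup210l and Rab13 (-0.24 ± 0.06), and, named after its value was seen, Rpl13 (-0.20). Per called base none of these 4 passed (-0.05, 0.09, 0.03 and -0.06). The immune markers' 1 tested gene did not pass (-0.14).

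Regions with a peak in the knockdown lists alone were mostly over 1 kb from a listed gene start and had lower scores than regions in all 6 lists. Of the 1469 regions held by exactly 3 lists 13.7% were near a gene start, and of those held by 6 lists 77.1%. The 1469 are mostly the 937 gained regions, of which 12.6% were near a gene start. Their median score was 109, where the caller's score is the log10 of p, times 10 and with its sign turned, against 902 for regions in all 6 lists. With equal numbers of peaks per list 194 regions were gained and 129 lost. Without the first knockdown list 1581 were gained, without the third control list 2884, and without the first control list 25 were lost. A gain here means a peak called, and tags of a library outside its peaks were not analysed here.

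The gained regions near genes with the highest scores are given here. Away from gene starts the highest mean scores were 442.2 and 365.5, against 1269.2 at Clic6 and 717.1 at Sox2. At Clic6, a chloride channel family member of secretory epithelia (chromosome 16, 92497707 to 92501191), the 3 knockdown lists held 320, 508 and 331 tags. That is 74.1, 81.8 and 63.9 CPM, and the weakest 5% of called control peaks lay below 15.8 to 27.4 CPM. At Sox2, a pluripotency and foregut factor (chromosome 3, 34649620 to 34653404), the lists held 292, 409 and 325 tags, or 67.7, 65.8 and 62.8 CPM. Both stayed gained with equal peak numbers, and so did Ugt2b34, a glucuronosyltransferase gene (63.7, 56.3 and 52.0 CPM), and the carbonic anhydrase gene Car13 (42.2, 32.5 and 34.2 CPM). The region of Sfi1, Eif4enif1 and Gm51877 held 139, 151 and 167 CPM, with scores of only 135, 416 and 588. With equal numbers of peaks this region was called in 2 knockdown lists and 0 control lists.

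Other groups differed at these sites. H3K9ac peaks at Clic6 were called in 3 Sen and 0 Res lists, and at Sox2 in 0 of either. H3K27ac peaks of the same groups lay at Clic6 and at Sox2 in 3 knockdown lists and 1 control list each. At Sox2 these held 145, 116 and 309 tags with the knockdown and 44 in the control. Most gained regions differed from these sites: all 3 control lists held an H3K27ac peak at 68.1% of the 937. At 14.2% of them 0 control lists did. Over all 19259 regions these shares were 83.1% and 5.51%. Over the 937 gained regions, all 3 Sen lists held an H3K9ac peak at 34.5% and all 3 Res lists at 8.11%. Both were below the shares over all regions of the 6 lists, 75.1% for Sen and 60.4% for Res. The 1469 regions held by exactly 3 of the 6 lists had 33.0% and 9.46%. They are mostly the 937 gained regions themselves, so the 2 sets are not independent. Further listed genes with a gained region were Cideb, Rorb, Gbp2, Hdac8, Ehf and Prrx1. The 2 lost regions near a gene lay at Ampd3 (71, 69 and 102 tags in the control lists), beside its tested region that fell, and at Sprr1a, a gene of keratinising epithelia (102, 148 and 148 tags).

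H3K27ac, which marks promoters and enhancers, was measured in separate libraries of the same groups, where 3.86% of 16235 regions were called (1.32% higher, 2.53% lower). These were 215 rises and 411 falls. With the replicate number as a block they were 502 and 939, and per called base 397 and 914. The H3K27ac shares and adjusted p-values that follow are those of the main fit. Of 550 fallen H3K9ac regions with a tested H3K27ac region, 531 were below 0 in H3K27ac and 136 were called as falls (24.7%), against 2.07% of all 10593 regions compared. Of 303 risen regions 276 were above 0 and 25 called as rises (8.25%, against 0.642%). Over the 10593 regions Pearson's r between the marks was 0.62 (0.57 without chromosomes X, 8 and 4), a description across regions from libraries of separate immunoprecipitations. Changes in H3K27ac were -1.24 at Ddah1 (edgeR adjusted p = 0.0179), -1.13 at Serinc2 (adjusted p = 0.0086), -1.19 at Ampd3 (0.00555), -0.64 at Ccn1 (0.00393) and -1.21 at Notch1 (0.0223). Eya1 rose by 1.05 (0.0125). Hip1r was at 0.21 (adjusted p = 0.367), and Slc16a3 at -0.63 (adjusted p = 0.054). The mark-by-hairpin term of edgeR passed at 0 of 10351 regions (0.0%) with a peak in all 12 lists. Its lowest adjusted p was 0.053, and 516 regions (4.99%) had an unadjusted p under 0.05. This fit did not pair the libraries of the 2 marks. With the marks paired by group and replicate number, 1 region passed, that of Hip1r. Its change was higher by 1.30 ± 0.15 in H3K9ac (edgeR adjusted p = 0.0147). Per called base, without this pairing, 12 regions passed.

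**Figure D4:**
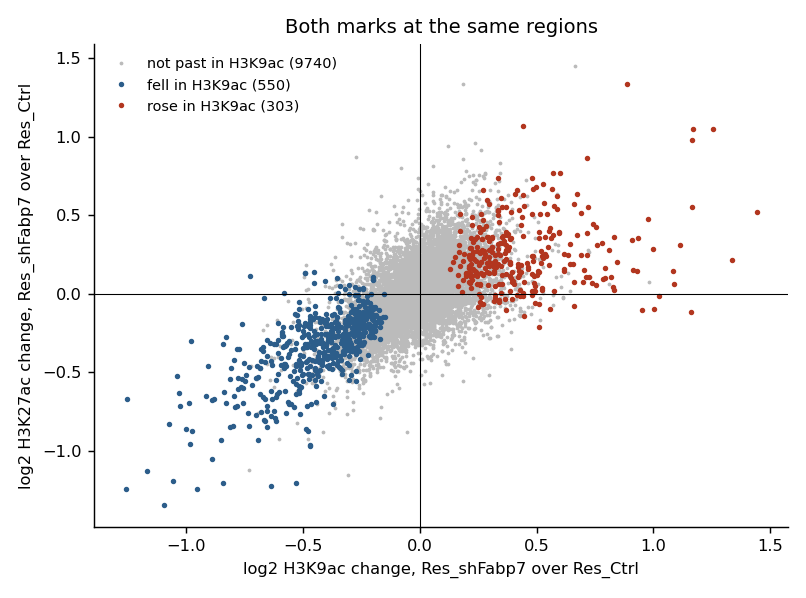
Change in H3K27ac (vertical) against change in H3K9ac (horizontal), both log2 of Res_shFabp7 over Res_Ctrl, for 10593 regions tested in both marks and coloured by the H3K9ac call. Of the fallen regions 531 of 550 lie below 0 in H3K27ac and of the risen ones 276 of 303 above it.

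By tags, the median change differed between chromosomes. The median change was 0.24 on chromosome X, where 27 of 165 regions rose and 0 fell. It was -0.15 on chromosome 8, where 140 of 691 regions fell (20.3%) and 2 rose, and -0.12 on chromosome 4, where 95 of 739 fell. Chromosome 3 was at -0.07, with 66 of 616 regions falling (10.7%) and 6 rising, and chromosomes 5, 6 and 9 at 0.08, 0.09 and 0.09. Per called base the medians were 0.04 on X, -0.08 on chromosome 8 and -0.08 on chromosome 4. Over regions whose called length differed by less than 1.25 times, a limit chosen after seeing the data, the median on X was 0.14. On chromosome 8 all 12 windows of 10 Mb with at least 20 regions had a median below 0 (-0.24 to -0.09), as did all 11 on chromosome 4. Chromosome 8 took 7.19, 7.07 and 7.07% of the tags in tested regions with the knockdown and 8.1, 8.0 and 7.78% in the controls, and chromosome X 0.972, 1.02 and 1.02% against 0.797, 0.825 and 0.904% (no overlap, exact permutation p = 0.1 each). The shares of chromosomes 3, 4, 5, 6 and 9 did not overlap between the groups either. H3K27ac shifted alike, with medians of 0.35, -0.21 and -0.16 on X, 8 and 4. With each chromosome's median removed, 385 regions fell and 151 rose. Copy number was not measured, and its part in these shifts was not tested. Among the genes named for a change, Adgra2, Sipa1l2, Zfp469, Herpud1, Bst2, Klf2, Dusp4 and Rpl13 lie on chromosome 8, and Serinc2, Car9, Jak1, Klf4, Jun and Cdc20 on chromosome 4. Ddah1, Ccn1, Csf1, Nes, Muc1 and Rps27, which fell, lie on chromosome 3, as do the gained regions of Sox2, Car13 and Gbp2 and the lost region of Sprr1a. On X lie Plp2, G6pdx, Taf1, Pgk1 and the gained region of Hdac8.

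**Figure D5:**
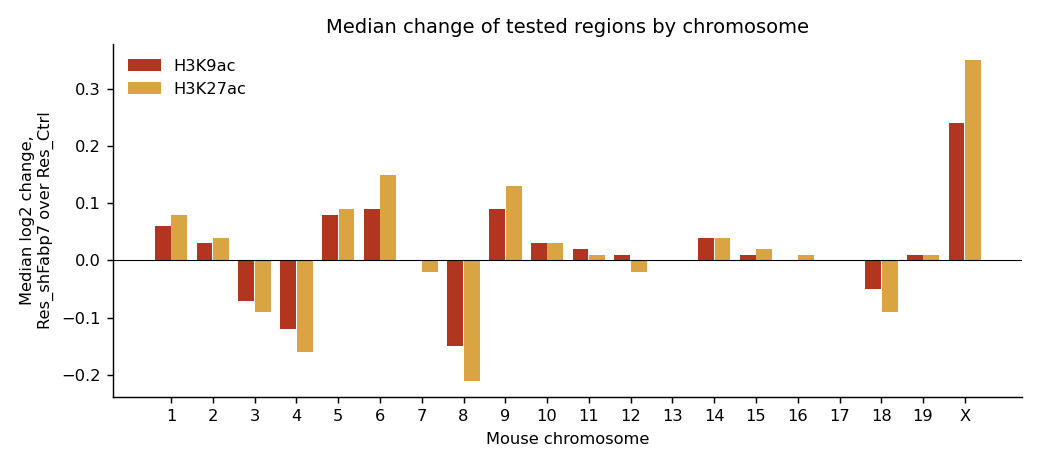
Median log2 change of Res_shFabp7 over Res_Ctrl over the tested regions of each mouse chromosome, for H3K9ac and H3K27ac. Chromosome X stands highest (0.24 and 0.35) and chromosomes 8 (-0.15 and -0.21) and 4 (-0.12 and -0.16) lowest in both marks.

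Sen and Res cells without a hairpin, which share no library with the hairpin comparison, gave values at 10183 of the tested regions. Between Res and Sen 54.5% of 11185 regions were called (28.1% higher and 26.4% lower in Res). Regions that rose with the knockdown were lower in Res than in Sen at 45.5% of 264 and higher at 18.2%. Regions that fell were higher in Res at 43.1% of 452 and lower at 28.1%. All 10183 regions were lower at 27.2% and higher at 27.3%. Of the 716 regions called with the hairpin and measured here, 315 went the opposite way past the threshold between Res and Sen. With Res and Sen compared per called base, 226 did. That setting called 2403 regions higher and 2213 lower in Res, against 3145 and 2948 by tags. Across regions r was -0.20 (-0.15 without chromosomes X, 8 and 4). By gene, Serinc2 was higher in Res than in Sen by 1.75, H2-K1 by 1.03, Csf1 by 0.86 and Sox9 by 1.02, and all 4 fell with the knockdown. Hip1r was lower in Res (-1.51) and rose. Other genes did not follow this: Muc1 was lower in Res (-0.78) and fell too, and Eya1 was higher (0.96) and rose. Res_Ctrl and Res, both resistant, themselves differed at 4500 of 10300 regions (43.7%; 21.3% higher and 22.4% lower in Res_Ctrl).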

How the data were processed

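The 6 deposited H3K9ac peak lists of Res_shFabp7 and Res_Ctrl were used, with 6 H3K27ac lists of these groups and 6 H3K9ac lists of Res and Sen. The other 6 lists were not used here. The submitters' processing notes name Bowtie 1.1.2, MACS 1.4.2 and the mm10 build. The peak caller's control and the treatment of duplicates are not given in the sources used here. Per the file headers each list gives a tag count per peak, a score (the log10 of p, times 10 and with its sign turned, 50.0 to 3233.06 in these lists) and a fold enrichment ratio, the authors' own values per peak. The lists used hold peaks only, so a region without a peak has no count.

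Peaks of the 6 lists sharing at least 1 base were merged and their tags summed. Regions with a peak in all 6 lists were tested in edgeR 4.0.16 (quasi-likelihood, TMM, Benjamini-Hochberg, adjusted p under 0.05), after a check on simulated data. Library sizes were the tags in tested regions, 2.55 to 6.2 M. Elsewhere presence was compared. A gene took the tested region with the highest mean CPM within 1000 bases of a RefSeq-listed start, or, for 4395 genes without one, of either end. Single values were compared by two-sided exact permutation. DESeq2 1.42.0 and other scalings, filters and left-out libraries were tried.

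Named were the Fabp genes, the 12 genes with the largest rise and fall whose groups did not overlap, up to 3 members past the threshold per list by size, and the 6 highest-scoring gained and lost regions near genes. Members and lists were chosen with earlier results of these data known. Motifs were searched in RefSeq promoters (GRCm38.p6). Some genes that the rule would name are not reported here.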

Additional observations from a re-analysis of the deposited data

How the results depend on the processing

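The count of 895 changed regions moved to 1431 (164 rose, 1267 fell) and that of 565 genes to 912 with all tags as library size, which shifted the median region to -0.09. With chromosome medians removed they were 536 and 300. Tags per called base with the tag scaling kept, chosen after seeing the data, called 2932 regions (2 rose, 2930 fell) around a median of -0.21. Leaving out 1 library gave 322 to 1120 regions and 180 to 719 genes. Gained and lost regions were 194 and 129 with equal numbers of peaks, 1860 and 26 for at least 2 of 3 lists against 0, and 943 to 2884 and 5 to 25 with 1 library left out. At a score of at least 100 the lost regions were 0. The causes were not tested. Per called base, rises turned into negative values at Hip1r (-0.45), Cfap410 (-0.08), Traf3ip1 (-0.51), Vcpip1 (-0.24), Tet3 (-0.29), Rassf8 (-0.23), Sqstm1 (-0.15), G6pdx (-0.12), Acsl3 (-0.02), Relb (-0.20), Dsp (-0.02) and Rplp0 (-0.05), and falls into 0.00 at Herpud1 and 0.03 at Rps27. With 1 library left out G6pdx ranged from -0.08, without the second knockdown library, to 0.32. Of the named genes, 6 of 26 rises and 31 of 44 falls passed per called base, and 13 and 35 with chromosome medians removed.

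The difference between the marks passed at 12 regions per called base (1 up, 11 down). It passed at 1 with the marks paired by group and replicate number. Same-numbered H3K9ac libraries of Res_shFabp7 and Res_Ctrl did not deviate together (correlations of 0.027, 0.023 and -0.052). The numbers are therefore not taken to pair these groups, which does not bear on a pairing of the marks. With the replicate number as a block 756 H3K9ac regions were called (258 rose, 498 fell), 702 of them in both fits.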
